A study of Mus musculus with 6 samples.

Results

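DNA replication genes were examined in regulatory T (Treg) cells, a CD4 lineage that expresses Foxp3 and dampens immunity, sorted from MC38 tumours of C57BL/6 mice. MC38 is a transplantable mouse colon carcinoma line. The members were the rows of the deposited expression table whose symbol was 1 of 39 named replication genes. All 39 were found, each once, among 55450 genes. The samples comprised 3 libraries from mice whose Treg cells had Tim-3 (sufficient) and 3 from mice whose Treg cells lacked it (deficient). The gene of Tim-3, a receptor known to inhibit T cells, is Havcr2. The labels give neither the allele, the Cre driver, the age of the mice nor any treatment, and whether each library stands for its own mouse is not said. The p-values below therefore measure library-to-library spread only, part of which may be technical. Column names showed the group of a library but not its replicate number. The libraries are called sufficient A1, B1 and dated, and deficient C1, D and dated, where dated marks, in either group, the 1 library with a calendar date in its name. What that date records is not said.

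A cell copies its genome once per division. In G1 the origin recognition complex, Cdc6 and Cdt1 load the ring-shaped MCM helicase onto origins, a step called licensing. In S phase Cdc45 and the GINS complex turn the loaded ring into an active helicase, primase and the replicative polymerases copy the strands, and a sliding clamp with its loader, a single-strand binding protein, a flap nuclease and a ligase complete the lagging strand. Most of these genes are transcribed together at the G1/S boundary by E2F factors, and their mRNA is commonly read as a sign of dividing cells. Treg cells in tumours include dividing cells. In a bulk library fewer dividing cells and less mRNA per dividing cell cannot be told apart.

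Some of the members' promoters carry the sequence by which E2F factors are known to act. Of the members, 32 had an entry in the RefSeq promoter table (GRCm38.p6, 250 bases before to 50 after each annotated start). An E2F element, searched as TTTCCCGC, TTTCGCGC, TTTGCCGC or TTTGGCGC on both strands, was present for 13 of these 32 genes (40.6%), against 2.60% of all 27025 genes of the table. Mcm4, Gins1, Gins2, Pole, Prim2, Rfc2 and Ccne2 had no entry. The CHR, TTTGAA, an element known from promoters of mitosis genes, was present for 4 of 32 (12.5%), against 20.2% of all genes. In a list of 24 mitosis genes, of which 21 had an entry, the shares were the other way round, at 4.76% for the E2F element and 71.4% for the CHR. The CCAAT box, CCAAT, was present for 59.4% of the members, 81.0% of the mitosis genes and 41.1% of all genes. Matches of different motifs may overlap, and a match is a description of letters, not of a bound site. The 3 stretches below were chosen because they lie before the start and outside annotated genes. They show the elements in capitals, from 40 bases before the first to 40 after the last. That of Mcm6 is cut just before its start and so ends slightly earlier.
Mcm6, chr1:128359706-128359855, minus strand: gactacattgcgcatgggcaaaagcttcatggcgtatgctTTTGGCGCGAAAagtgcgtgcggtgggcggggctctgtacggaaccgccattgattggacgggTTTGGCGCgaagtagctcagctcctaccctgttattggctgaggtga
Mcm5, chr8:75109316-75109407, plus strand: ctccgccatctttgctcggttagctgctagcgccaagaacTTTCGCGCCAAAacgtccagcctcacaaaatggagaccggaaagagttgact
Pola1, chrX:93632246-93632333, minus strand: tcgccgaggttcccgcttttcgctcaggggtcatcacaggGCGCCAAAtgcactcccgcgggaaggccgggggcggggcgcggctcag
Mcm6 has 3 matches, which begin 110, 106 and 47 bases before its start, and the first 2 overlap on opposite strands. Mcm5 has 2 matches at 153 and 149 bases, which likewise overlap on opposite strands, and Pola1 has 1 on the opposite strand at 138 bases.

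The libraries differed in ways that touch the results below. Read depth is unknown because the deposited values, log2(TPM + 1), keep no counts; TPM is a transcript abundance per length that sums to 1000000 in each library. Between 11470 and 12681 genes reached 1 TPM, with the 2 dated libraries lowest at 11470 and 11474. Havcr2 was at 5.70, 5.64 and 4.49 in sufficient A1, B1 and dated, and at 3.54, 4.27 and 2.55 in deficient C1, D and dated, so each deficient library lay below each sufficient one. The deficient dated library had Kdm5d, Uty and Eif2s3y, all Y-linked, at 0, unlike the other 5 libraries. Of 8 Treg markers the summed level was 4939 to 7229 TPM in sufficient and 4442 to 5698 TPM in deficient libraries. Deficient minus sufficient, 6 of the 8 differences were negative and 2 positive. Foxp3 was between 4.82 and 5.56 and Cd3e between 8.81 and 9.47. Il2ra was at 8.51, 8.26 and 7.23 in the sufficient and 7.10, 7.23 and 7.67 in the deficient libraries, in the same order. Of 12 macrophage and monocyte markers the summed level was 27.9 to 945 TPM in sufficient and 19.3 to 1365 TPM in deficient libraries, highest in deficient C1 and sufficient B1, and Csf1r was at 0 in deficient D and deficient dated. Of 6 CD8 T and NK cell markers the sum was 12.4 to 44.0 TPM in sufficient and 14.6 to 72.3 TPM in deficient libraries, lowest in both dated libraries. Ncr1 and Eomes were at 0 in both of these, and Ncr1 also in sufficient B1. Summed dendritic cell markers stayed between 2.5 and 9.6 TPM. Summed B cell markers, mostly Ighm and Igkc, were 339 to 614 TPM in sufficient and 582 to 793 TPM in deficient libraries. Of 6 tumour and epithelial markers the sum was 9.8 to 17.2 TPM in sufficient and 12.8 to 24.55 TPM in deficient libraries. Epcam was between 3.23 and 4.64 and Krt18 between 0.71 and 1.38. Ms4a1 of the B cell markers and Krt8, Krt19 and Cldn4 of the epithelial markers were at 0 in every library. The part of these differences in the results on replication genes was not tested.

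The design sets Tim-3 deficient against Tim-3 sufficient tumour Treg cells. No replication gene passed the test. Of 12155 genes tested with limma, 25 (0.206%) had a Benjamini-Hochberg adjusted p under 0.05. Havcr2 was not among these 25, although its groups did not overlap. Its difference, deficient minus sufficient, was -1.83, with an adjusted limma p of 0.211. When limma also fitted the date mark, the adjusted p of Havcr2 was 0.0148. Of the 38 tested replication genes 0 were among the 25. Their median difference, deficient minus sufficient, was 0.10 on the log2(TPM + 1) scale, against 0.09 for all tested genes, and 29 of 38 (76.3%) were positive, against 60.1% of all tested genes. Centring each library on its median shifted the median of all genes by -0.13, and the members' median moved with it to -0.04. An unadjusted p under 0.05 was found for 1 of the 38 members, Lig1, against 11.7% of all tested genes. Lig1 was also the only 1 of the 38 (2.63%) whose groups did not overlap, against 17.6% of all tested genes in either direction and 6.73% in its direction, lower. E2f1, the remaining member and itself an E2F factor, reached 1 TPM in only 2 libraries, under the minimum of 3, and was not tested. It was at 1.15, 0.69 and 0.43 in sufficient A1, B1 and dated, and at 1.30, 0.79 and 0.86 in deficient C1, D and dated, so its groups overlapped.

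The precision of these libraries left room for sizeable differences. The half-width of the 95% limma interval ran from 0.34 for Pcna to 1.25 for Mcm10, with a median of 0.83. The interval included a log2 difference of 1, a doubling, for 18 of the 38 members, and lay wholly within -1 and 1 for 13. The plot of group differences with their intervals shows this for each gene.

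**Figure D1:**
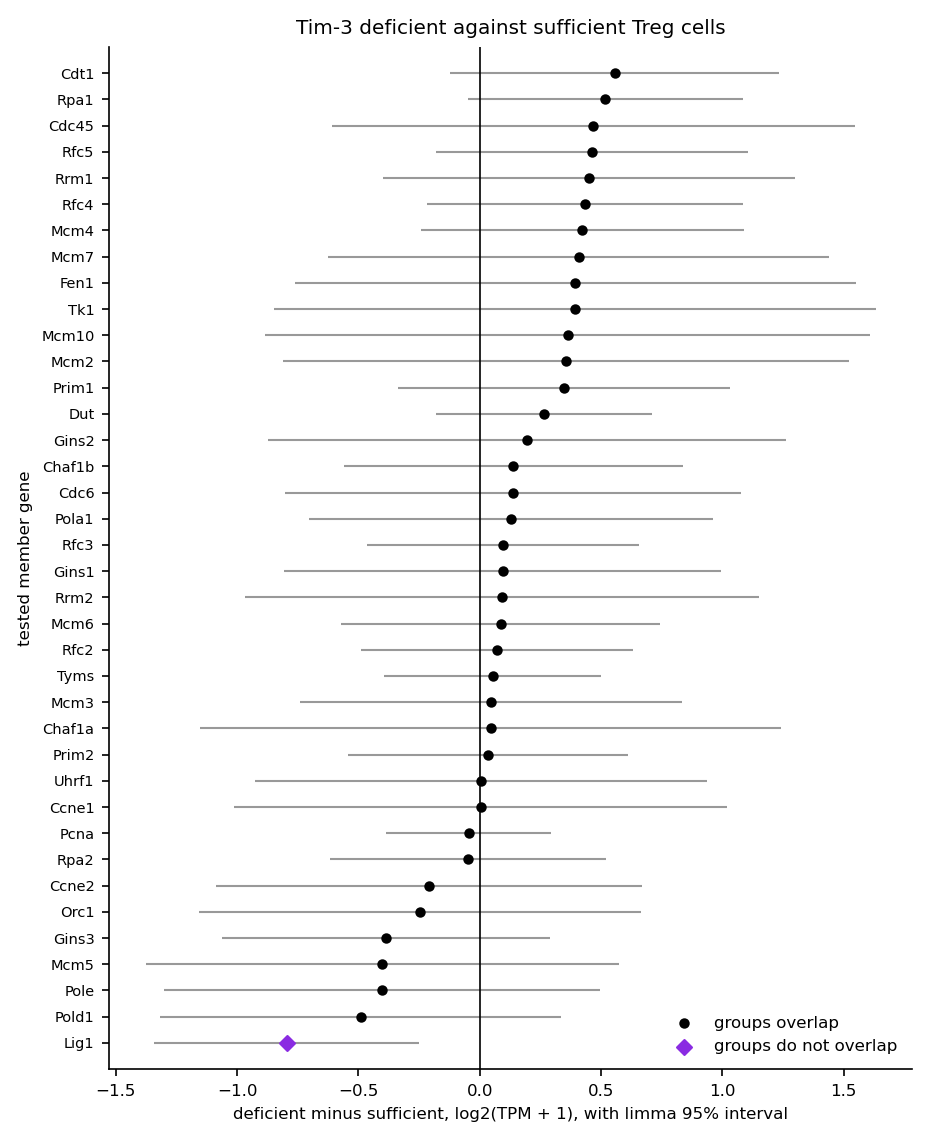
Difference between the deficient and sufficient group means for each of the 38 tested replication genes (x axis, log2(TPM + 1)), with the limma 95% interval as a grey line (n = 3 libraries per group). All intervals but that of Lig1, at -0.79, include 0.

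The level of the 39 genes together overlapped between the groups. The summed level of the 39 genes was 1425, 1126 and 1062 TPM in sufficient A1, B1 and dated, and 1811, 1364 and 932 TPM in deficient C1, D and dated. Both the highest and the lowest library were deficient, 1.94-fold apart, and the sufficient libraries lay between them. The mean log2 level over the 39 genes was 4.17 ± 0.27 (SD, n = 3) in sufficient and 4.28 ± 0.55 (SD, n = 3) in deficient libraries, a difference of 0.11 that is smaller than either SD. Of the tested members 29 of 38 (76.3%) had their highest value in deficient C1, which held the highest value of 28.2% of all tested genes. The lowest value fell in a dated library for 30 of 38 (78.9%), against 50.8% of all tested genes. Deficient C1 also had the highest summed macrophage markers, 1365 TPM. Sufficient B1, next with 945 TPM of those markers, had a replication sum of 1126 TPM. Whether the marker and replication sums are related was not tested.

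**Figure D2:**
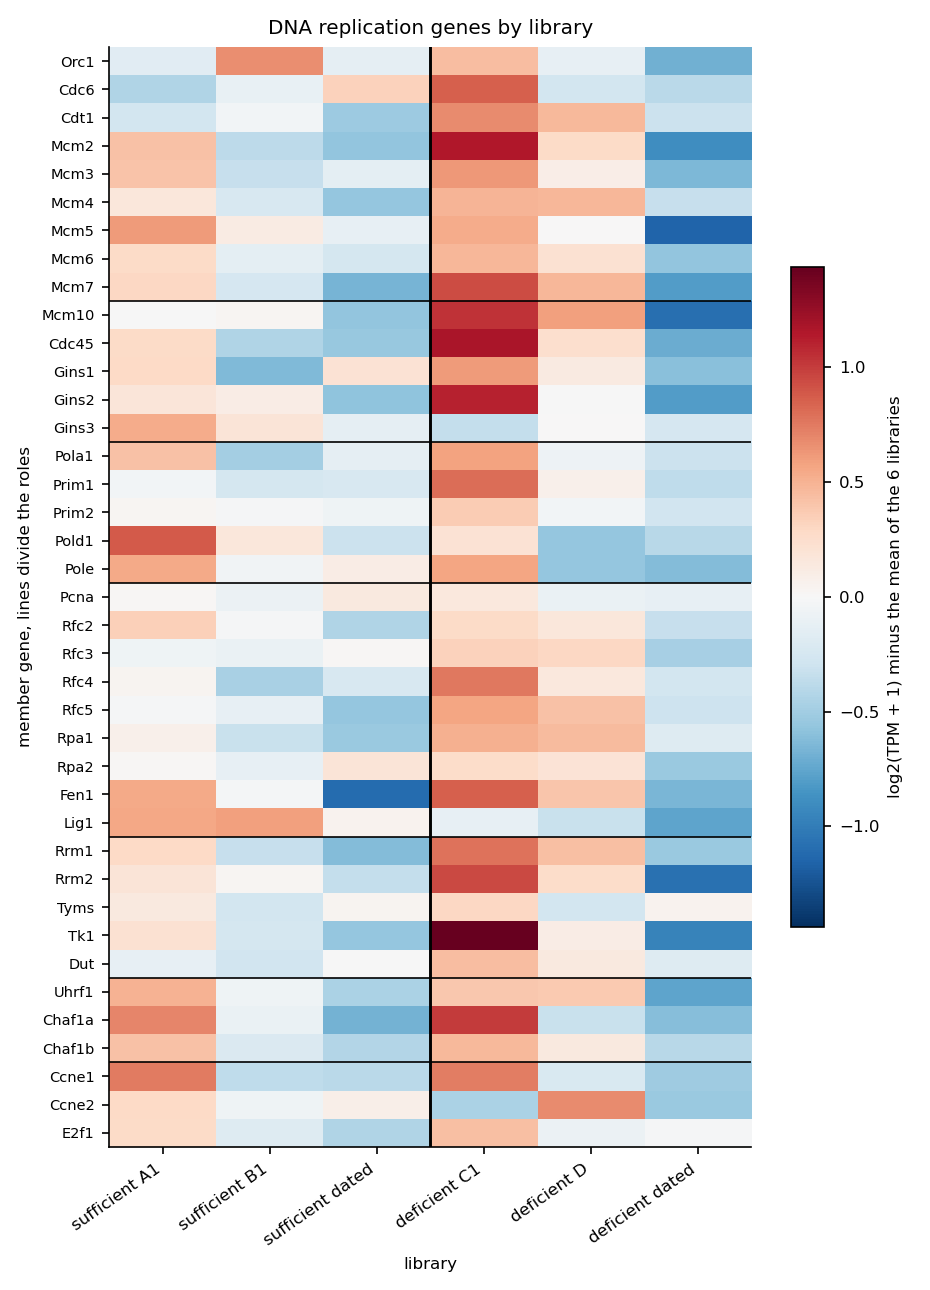
Level of each of the 39 replication genes in the 6 libraries, as log2(TPM + 1) minus the gene's mean over the libraries (red higher, blue lower), with horizontal lines between roles and a vertical line between groups. Deficient C1 holds the highest value of 30 genes and the 2 dated libraries hold the lowest value of 31.

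Licensing genes had positive differences in 7 of 9 members and none was called; their median was 0.14. Cdt1, which brings the MCM ring to the origin, was at 4.09, 4.32 and 3.84 in sufficient A1, B1 and dated, and at 5.04, 4.83 and 4.06 in deficient C1, D and dated. The undated deficient libraries lay above all sufficient ones, while the deficient dated library lay among them. Its difference was 0.56 ± 0.29 (SE), with an adjusted limma p of 0.503. Mcm4, a helicase subunit, was at 5.27, 4.88 and 4.55 in the sufficient and 5.60, 5.59 and 4.78 in the deficient libraries, in the same order. The groups overlapped through the deficient dated library, and the difference of 0.42 ± 0.29 had an adjusted p of 0.593. Mcm6, another subunit and the most abundant licensing gene, was at 6.56, 6.14 and 6.04 in the sufficient and 6.77, 6.51 and 5.72 in the deficient libraries. For Mcm6 the deficient libraries held both the highest and the lowest value, and the difference was 0.09 ± 0.28, which turned negative under quantile normalization and median centring. The 2 licensing genes with negative differences were Mcm5 at -0.40, in which the deficient dated library stood lowest at 3.28, and Orc1, a subunit of the origin recognition complex, at -0.25. Mcm2, Mcm3, Mcm7 and Cdc6, the loader of the ring, ranged from 0.05 to 0.41.

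The subunits of a complex were not at equal transcript levels. Mcm2 to Mcm7 form a ring with 1 copy of each, yet Mcm6 stood highest of the 6 in every library, between 51.8 and 108 TPM. The lowest was Mcm2 in 4 libraries and Mcm5 in deficient C1 and deficient D, and the highest subunit exceeded the lowest 3.59-fold to 6.04-fold. In the clamp loader, which opens the sliding clamp, Rfc2 stood highest of the 4 small subunits at 93.6 to 162 TPM. Rfc5 was the lowest of these 4 at 16.05 to 36.2 TPM. The loader also holds Rfc1, which is not a member. In log2(TPM + 1) Rfc1 was at 4.59, 4.19 and 4.11 in sufficient A1, B1 and dated. It was at 4.06, 4.21 and 3.53 in deficient C1, D and dated. Rfc1 lay below Rfc5 in all libraries but sufficient dated. Exons of Rfc2, Rfc4 and Rfc5 overlap Lat2, Eif4a2 and Wsb2, in that order, on the opposite strand. Those of Mcm7 overlap Cops6 and Ap4m1, also on the opposite strand. Reads of overlapping genes cannot be separated without strand. Both subunits of ribonucleotide reductase, Rrm1 and Rrm2, were within 1.46-fold of each other in each library.

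**Figure D3:**
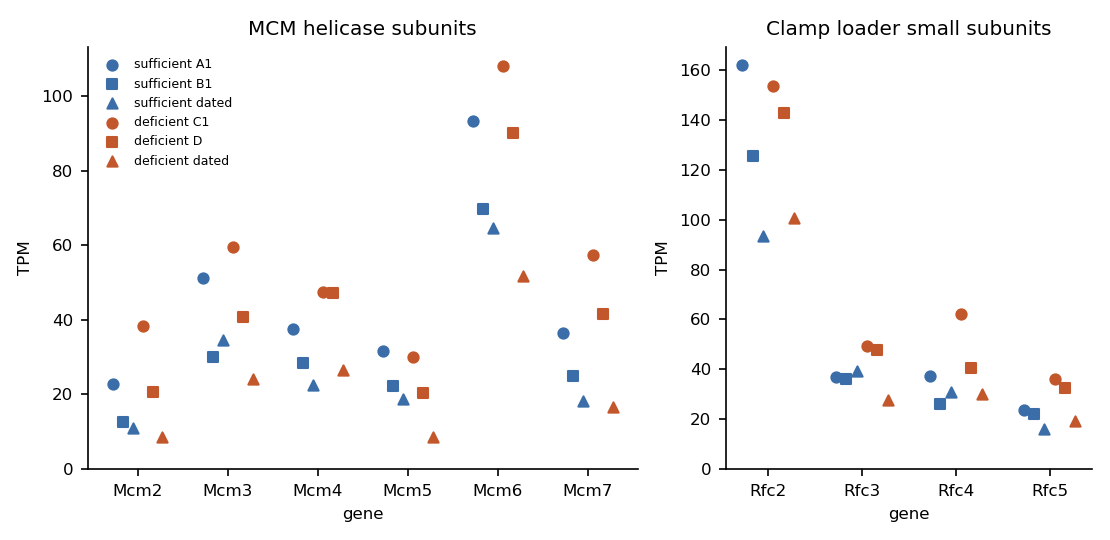
TPM of the MCM helicase subunits (left) and of the 4 measured small subunits of the clamp loader (right), 1 point per library, blue for sufficient, orange for deficient and triangles for dated libraries. Mcm6 and Rfc2 lie above the other subunits in all 6 libraries, and no subunit separates the groups.

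Genes that activate the helicase had positive differences in 4 of 5 members, with a median of 0.20 and none called. Cdc45, a part of the active helicase, was at 4.17, 3.47 and 3.35 in sufficient A1, B1 and dated, and at 5.07, 4.14 and 3.19 in deficient C1, D and dated. The 2 groups interleaved, with deficient C1 above and deficient dated below all sufficient libraries, and the difference was 0.47 ± 0.47 with an adjusted p of 0.736. Gins2, a GINS subunit and the most abundant of the 5, was at 4.56, 4.48 and 3.80 in the sufficient and 5.48, 4.37 and 3.57 in the deficient libraries, again with deficient C1 alone on top. Gins3, another GINS subunit, went the other way, with 2.65, 2.31 and 1.99 in the sufficient and 1.78, 2.13 and 1.89 in the deficient libraries. Its lowest library was deficient C1, where most members were highest, and Gins2 exceeded Gins3 18.0-fold in TPM there, against 4.04-fold to 5.83-fold in the other 5 libraries. The difference of Gins3, -0.39 ± 0.29, did not pass (adjusted p = 0.633 in limma). Mcm10, which joins the activated helicase, was at or below 2.76 in all libraries, and Gins1 had a difference of 0.09.

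Among polymerase and primase genes 3 of 5 differences were positive, with a median of 0.03, and none was called. Pold1, the catalytic subunit of polymerase delta, was at 4.59, 3.88 and 3.40 in sufficient A1, B1 and dated, and at 3.92, 3.16 and 3.32 in deficient C1, D and dated. Deficient C1 lay above 2 of the 3 sufficient libraries, so the groups overlapped, and the difference was -0.49 ± 0.36 with an adjusted p of 0.621. Prim1, the catalytic primase subunit, was at 4.74, 4.52 and 4.54 in the sufficient and 5.57, 4.85 and 4.41 in the deficient libraries. Its undated deficient libraries were highest and its deficient dated library lowest, with a difference of 0.35 ± 0.30. The catalytic subunit of polymerase epsilon, Pole, had -0.40, and that of polymerase alpha, Pola1, had 0.13. The other primase subunit, Prim2, had 0.03.

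The clamp, clamp loader and lagging-strand genes included the 1 member whose groups did not overlap. Lig1, the ligase that seals Okazaki fragments (GRCm38 chromosome 7, 13277283 to 13311433, plus strand), was at 6.00, 6.04 and 5.49 in sufficient A1, B1 and dated, and at 5.33, 5.13 and 4.69 in deficient C1, D and dated. Every deficient library lay below every sufficient one. The means were 5.85 ± 0.31 and 5.05 ± 0.33 (SD, n = 3 each), a 1.73-fold lower level of TPM + 1 in deficient cells, with a log2 difference of -0.79 ± 0.24 (SE) and a 95% interval from -1.34 to -0.25. It did not pass over all genes (limma, adjusted p = 0.251). With the date mark as a block it passed (adjusted p = 0.0402), and then 1 of 38 members was called, against 1.97% of all tested genes in either direction and 0.856% lower. With the block 5 members had an unadjusted p under 0.05, against 19.7% of all tested genes. The undated libraries gave a difference of -0.79 and the dated libraries one of -0.80, and the value lay between -0.97 and -0.62 when any 1 library was left out. Exons of Lig1 overlap Zswim9 on the opposite strand.

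The other lagging-strand genes gave values without separation of the groups. Rpa1, the large subunit of the single-strand binding protein, was at 5.99, 5.60 and 5.40 in sufficient A1, B1 and dated, and at 6.43, 6.38 and 5.74 in deficient C1, D and dated. Only the deficient dated library fell within the sufficient range, and the difference was 0.52 ± 0.25 with an adjusted p of 0.458. Pcna, the sliding clamp and the most abundant member on average, varied least, with 7.22, 7.11 and 7.33 in the sufficient and 7.34, 7.09 and 7.08 in the deficient libraries. Its difference was -0.05, with a 95% interval from -0.38 to 0.29. The loader subunits Rfc2, Rfc3, Rfc4 and Rfc5 ranged from 0.07 to 0.46, Fen1, the flap nuclease, had 0.39 and Rpa2 had -0.05. Pcna has annotated pseudogenes, Pcna-ps1 and Pcna-ps2, to which reads can be divided.

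Nucleotide supply genes had positive differences in 5 of 5 members, with a median of 0.27, and none was called. Rrm1, the large subunit of ribonucleotide reductase, was at 5.67, 5.05 and 4.77 in sufficient A1, B1 and dated, and at 6.17, 5.82 and 4.86 in deficient C1, D and dated. The deficient dated library lay among the sufficient ones and the difference was 0.45 ± 0.37. Dut, which keeps uracil out of DNA, was at 6.34, 6.18 and 6.45 in the sufficient and 6.90, 6.60 and 6.27 in the deficient libraries, with a difference of 0.27 ± 0.19 and overlapping groups. Tyms, thymidylate synthase and the most abundant of the 5, was at 6.80, 6.40 and 6.70 in the sufficient and 6.96, 6.39 and 6.71 in the deficient libraries. Its difference of 0.05 ± 0.19 turned negative under quantile normalization and median centring, and Tyms has an annotated pseudogene, Tyms-ps. Tk1, thymidine kinase, showed the widest scatter of all members, from 4.37 in deficient dated to 6.76 in deficient C1, with a difference of 0.39. Rrm2, the small reductase subunit, had 0.09.

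None of the 3 chromatin replication genes or of the 2 tested G1/S regulators was called. Chaf1b, a subunit of the CAF-1 histone chaperone, was at 5.18, 4.54 and 4.33 in sufficient A1, B1 and dated, and at 5.21, 4.90 and 4.36 in deficient C1, D and dated, a difference of 0.14 ± 0.30. Chaf1a, the large CAF-1 subunit, was at 1.98, 1.19 and 0.60 in the sufficient and 2.28, 0.96 and 0.67 in the deficient libraries, a difference of 0.04 ± 0.52. In both the groups overlapped over most of their range. Uhrf1, which recruits the maintenance DNA methyltransferase, had 0.01. Ccne1, a cyclin that drives S phase entry, was at 3.68, 2.57 and 2.55 in the sufficient and 3.67, 2.72 and 2.42 in the deficient libraries, with sufficient A1 and deficient C1 high in their groups. Its paralog Ccne2 was at 2.39, 2.04 and 2.19 in the sufficient and 1.65, 2.78 and 1.57 in the deficient libraries, highest in deficient D. Their differences were 0.00 ± 0.44 and -0.21 ± 0.38.

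The members' median difference was positive in the undated libraries and negative in the dated pair. In the undated libraries, 2 against 2, the members' median difference was 0.35 (all tested genes 0.09), and 31 of 38 were positive (all tested genes 58.6%). In 13 members (34.2%) both deficient libraries lay above both sufficient ones, against 31.3% of all tested genes, and in 2, Lig1 and Gins3, both lay below, against 20% of all tested genes. None of the 38 was called there, against 1.77% of all tested genes, while 9 had an unadjusted limma p under 0.05, against 19.3%. The pair of dated libraries, 1 against 1, allows no test; its median was -0.20 (all tested genes 0.08), and 28 of 38 were negative (all tested genes 42%). Of the members 21 of 38 (55.3%) were positive in the undated and negative in the dated libraries, against 19.6% of all tested genes; 7 were negative and 10 positive in both. Among those positive in both, Rpa1 had 0.61 and 0.34, Cdt1 0.73 and 0.22, Rfc5 0.57 and 0.26, and Fen1 0.37 and 0.45, in that order. Deficient dated lacked the Y-linked transcripts named above, which sufficient dated had. In the dated pair this difference and the group cannot be told apart.

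**Figure D4:**
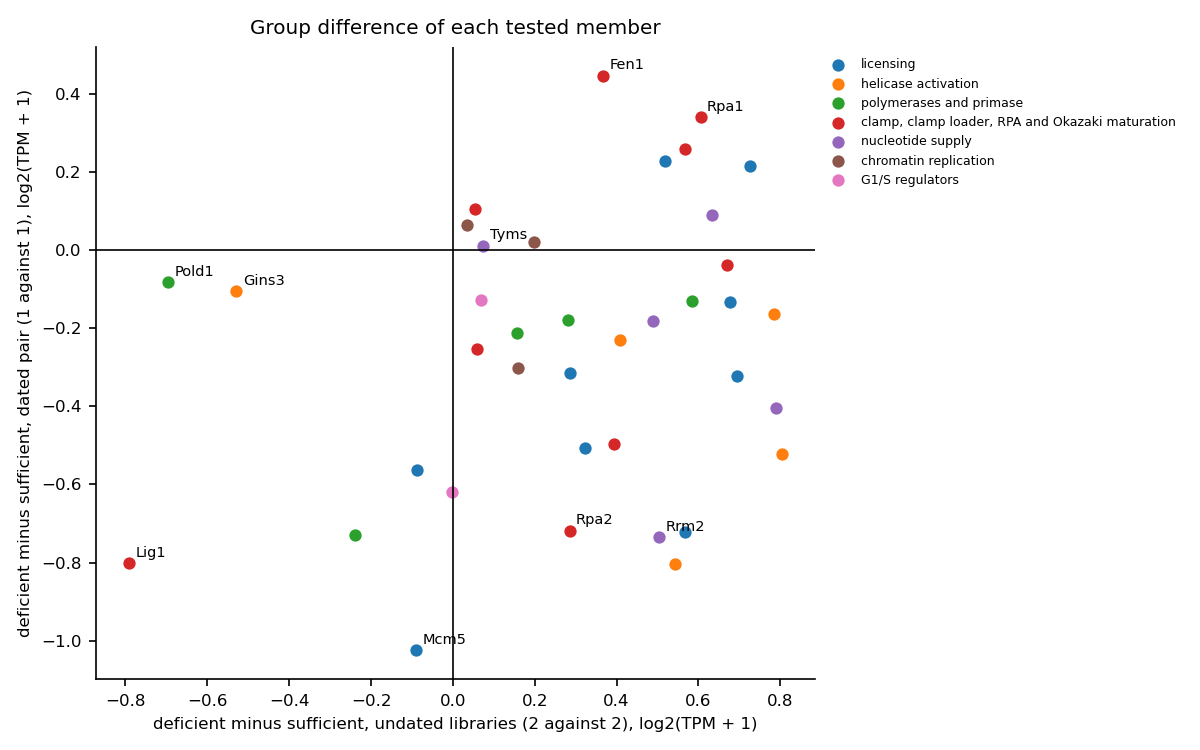
Deficient minus sufficient difference of each tested member in the 4 undated libraries (x axis) and in the dated pair (y axis), both in log2(TPM + 1), coloured by role. Most points, 21 of 38, lie to the right of 0 and below 0, and Lig1 lies at -0.79 and -0.80.

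The difference between the dated pair and the undated libraries was itself tested with an interaction term in limma, added after the data were seen. It called 0 of the 38 members (all tested genes 0.0165%), and the smallest adjusted p was 0.681. An unadjusted p under 0.05 was found for 3 members, Rpa2, Rfc3 and Rrm2, against 6.1% of all tested genes. The dated arms hold 1 library each, so this test assumes that they vary like the undated ones. The members' median depended on single libraries: it was 0.38 without the deficient dated library, in which fit 13 members were higher with no overlap (all tested genes 26.9%), and -0.13 without deficient C1. It was -0.19 without sufficient B1 and deficient C1, the libraries with most macrophage transcripts.

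Dated libraries of both groups stood below undated ones. This comparison, also added after the data were seen, used the date coefficient of the limma model that held the group as well. Fen1 was at 3.27 in sufficient dated and 3.71 in deficient dated, and at 4.92, 4.35, 5.23 and 4.77 in sufficient A1, sufficient B1, deficient C1 and deficient D. Both dated libraries lay below all undated ones, and Fen1 fell by 1.33 ± 0.23 (SE), with an adjusted p of 0.0328. Fen1 was the 1 member called (2.63%), against 3.56% of all tested genes in either direction and 2.99% lower. Its adjusted p was 0.168 when deficient dated was left out, 0.115 for sufficient dated, 0.103 for sufficient A1, 0.0681 for sufficient B1 and 0.0629 for deficient D, so the call rested on each of these 5. It was also lost under quantile normalization (adjusted p = 0.0733), without the group term (0.0972) and without the filter on low values (0.178). Exons of Fen1 overlap Tmem258 on the opposite strand.

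The other members lay in the same direction without passing. The dated minus undated difference was negative for 36 of 38 members (all tested genes 67.4%), with a median of -0.60 (all tested genes -0.20). Both dated libraries lay below all 4 undated ones for 20 of 38 (52.6%), against 23.4% of all tested genes, and 19 of 38 (50.0%) had an unadjusted limma p under 0.05 and a lower level, against 20.4%. Under quantile normalization the members' median was -0.37 (all tested genes 0.04), and under median centring it was -0.28 (all tested genes 0.12). Mcm7, a helicase subunit, was at 4.26 and 4.13 in the dated libraries of the sufficient and deficient group, and at 5.22, 4.69, 5.87 and 5.41 in sufficient A1, sufficient B1, deficient C1 and deficient D, a difference of -1.10 ± 0.26 (adjusted p = 0.0600). Exons of Mcm7 overlap Cops6 and Ap4m1 on the opposite strand, and Mir25 and Mir93 on its own. Rrm1 had -0.87 ± 0.23, Rfc2 had -0.58 ± 0.14 and Mcm10 had -1.24 ± 0.37. Pcna at 0.01 and Tyms at 0.07 were the 2 members with positive values. CD8 T and NK cell markers and the number of genes at 1 TPM were also lower in both dated libraries, as given above, and their part in this difference was not tested.

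Genes of the same pathway outside the 39 also had no call. Of 42 other replication genes 39 were tested, 27 were positive and 12 negative in deficient against sufficient cells, and 0 were called in either direction; the median was 0.15. The 3 of smallest p were Pold4, a small subunit of polymerase delta, at -0.50 ± 0.14 (adjusted p = 0.227), and the origin recognition subunits Orc4 at 0.46 ± 0.16 (adjusted p = 0.312) and Orc5 at 0.56 ± 0.22 (adjusted p = 0.381). In each of them the groups did not overlap, as in 6 of the 39 in all (15.4%), against 17.6% of all tested genes. Dated minus undated, 30 of the 39 were negative (all tested genes 67.4%), with a median of -0.42 (all tested genes -0.20). Of these, 3 were called lower, the polymerase subunits Pold2 at -1.33 and Pola2 at -1.14 and the chromatin factor Atad2 at -0.86, named after their values were seen. No more than 1 of the 39 was called when any 1 library was left out, and none under quantile normalization or median centring. Among the origin recognition subunits the dated minus undated difference was -0.62 for Orc1, a member, -0.61 for Orc2, -0.12 for Orc3, 0.05 for Orc4, 0.09 for Orc5 and -0.42 for Orc6.

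Mitosis genes, too, were highest in deficient C1 and lowest in deficient dated. Their summed level was 645, 701 and 369 TPM in sufficient A1, B1 and dated, and 1269, 1023 and 245 TPM in deficient C1, D and dated. None of the 24 was called between the groups; the median was 0.21 over all libraries, 0.61 over the undated ones and -0.39 over the dated ones. The 3 of smallest p were Kif23, a motor of the central spindle, at 0.72 ± 0.49, Tpx2, a spindle assembly factor, at 0.72 ± 0.51, and Ttk, a checkpoint kinase, at 0.49 ± 0.39. In the undated libraries alone the mitotic kinase Cdk1 at 1.28 and its cyclin Ccnb1 at 1.25, named after their values were seen, passed (adjusted p = 0.0406 and 0.0265). Against the date mark 10 of the 24 mitosis genes were called lower (all tested genes 2.99%), with a median difference of -1.36 (all tested genes -0.20). That count was 9 without deficient C1 and 10 without sufficient dated, and leaving out any of the other 4 libraries, deficient dated, deficient D, sufficient B1 or sufficient A1, brought it to 0. Over all tested genes the number called in either direction was 433 with all libraries and 23 to 64 in those 4 fits. The mitosis count was also 6 under median centring, 1 under quantile normalization, and 0 without the filter on low values or without the group term. Whether mitosis and replication genes differed from each other in this was not tested.

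Inhibitors of the cell cycle gave no call either. Of 14 genes 13 were tested and 0 were called, and the groups did not overlap in 4 of the 13 (30.8%), against 17.6% of all tested genes. Cdkn2a, the untested one, did not reach a log2 value of 1 in at least 3 libraries. It was at 0.084, 0 and 0.163 in sufficient A1, B1 and dated, and at 1.93, 1.395 and 0.705 in deficient C1, D and dated. Its groups did not overlap either, at low levels. Btg2, an antiproliferative factor, was at 7.01, 6.91 and 6.88 in sufficient A1, B1 and dated, and at 7.68, 7.87 and 8.13 in deficient C1, D and dated. All deficient libraries lay above all sufficient ones, by 0.96 ± 0.16 (adjusted p = 0.0727), and with the block on the date mark Btg2 passed (adjusted p = 0.0240). Cdkn2d, an inhibitor of G1 cyclin-dependent kinases, was at 6.87, 6.64 and 6.46 in the sufficient and 7.10, 7.25 and 7.62 in the deficient libraries, 0.67 ± 0.19 higher on average (adjusted p = 0.227). Btg1, a relative of Btg2, was at 9.27, 8.96 and 9.36 in the sufficient and 8.20, 8.46 and 8.81 in the deficient libraries, a difference of -0.71 ± 0.19 (adjusted p = 0.214, and 0.0476 with the block).

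**Figure D5:**
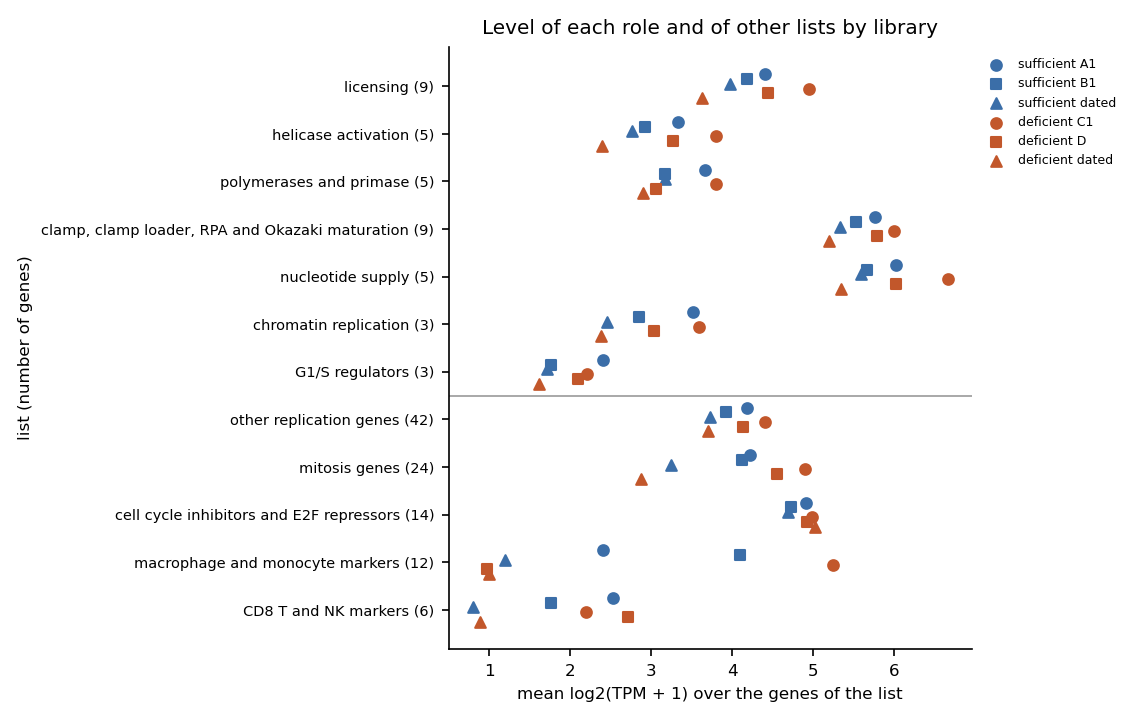
Mean log2(TPM + 1) of each role of the replication genes (above the grey line) and of other gene lists (below it), 1 point per library, blue for sufficient, orange for deficient and triangles for dated libraries. The dated libraries lie lowest in the mitosis genes (mean 3.24 and 2.87), the deficient dated library is lowest in every replication role, and deficient C1 is highest in all replication roles but the G1/S regulators.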

How the data were processed

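The table of the series held 6 libraries of Treg cells, sorted from tumours into lysis buffer and made with a Nextera XT kit, per the labels' protocols. The submitters' processing notes name RSEM, STAR and limma with no version, and the builds GRCm38 and mm10; their order and settings are not given in the sources used here. The deposited log2 values are log2(TPM + 1): raised back, each library summed to between 999999 and 1000001. Depth is therefore unknown and no counting interval was computed. All 55450 identifiers matched GENCODE M21 on GRCm38, whose coordinates were used. No label says that strand was kept, and exons of 14 members overlap another gene, 13 of them on the opposite strand.

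Genes with a log2 value of at least 1 in at least 3 libraries were tested (12155 genes, 38 of 39 members). Limma (lmFit, eBayes with trend) compared deficient with sufficient libraries without covariates, two-sided, with Benjamini-Hochberg adjustment over all tested genes and a threshold of 0.05. A difference is deficient minus sufficient in log2(TPM + 1), which understates changes of low genes. This fit was tested on simulated data that held no date effect. The fits with a date term were not simulated. Values in every library are given for members past the threshold or without overlap, and in each of 7 roles for the 2 members of smallest p and the most abundant one. From each other list of the pathway the 3 genes of smallest p are named. Other genes are named by value after these were seen. Members, lists and tests were chosen with earlier results of these data known. Alternatives covered the filter, pseudocount, scaling, variance model, date block, date subsets and leaving out each library. Fits used limma 3.58.1 in R 4.3.3. Tables were built in Python 3.11.15 with scipy 1.17.1 and pandas 2.3.3, and plots with matplotlib 3.10.9.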

Additional observations from a re-analysis of the deposited data

How the results depend on the processing

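No paired analysis was possible because the column names carry no replicate numbers; the only block fitted was the date mark, which 1 library of each group carries. The count of called replication genes stayed at 0 under each alternative filter, pseudocount, scaling and variance model and without any 1 library, and was 1 (Lig1) with the date mark as a block. Among the other 3 lists the count of called genes, 0 at first, was 2 with that block and 3 in the undated libraries. The number of replication genes without overlap, 1 at first, was 2 under quantile normalization (5.26%, all tested genes 18.4%), 3 under median centring (7.89%, 17.1%), 15 in the undated libraries (39.5%, 51.3%), 5 without sufficient B1 and deficient C1 (13.2%, 33.0%), and 1 to 14 when any 1 library was left out (2.63% to 36.8%, 23.6% to 39.2%). Between dated and undated libraries 1 of 38 members was called at first and 0 of 39 without a filter. With the stricter filter (mean log2 value of at least 3) the count was 3 of 28. It was 0 under quantile normalization, 0 without the group term and 0 to 1 when any 1 undated library was left out. Over all genes 433 of 12155 were called at first, 0 without a filter and 733 of 7241 with the stricter filter. The count over all genes was 79 under quantile normalization, 24 without the group term and 23 to 498 with 1 undated library left out. Some differences changed sign. Under quantile normalization Ccne1 had -0.090, Mcm6 -0.038 and Tyms -0.066. Under median centring Ccne1 had -0.13, Chaf1a -0.090, Mcm6 -0.049 and Tyms -0.081. In the undated libraries Pcna had 0.059. Without sufficient B1 and deficient C1, a choice made after seeing the data, Ccne1 had -0.54, Cdc45 -0.10, Chaf1a -0.48, Chaf1b -0.13, Gins2 -0.21, Mcm6 -0.18, Prim1 -0.0092 and Tyms -0.20. When any 1 library was left out, Ccne1 ran from -0.36 to 0.38, Ccne2 from -0.60 to 0.0084, Cdc45 from -0.00026 to 0.94, Chaf1a from -0.45 to 0.41, Chaf1b from -0.056 to 0.39, Gins2 from -0.31 to 0.65, Mcm6 from -0.13 to 0.39, Pcna from -0.13 to 0.012 and Tyms from -0.080 to 0.20. The causes of these changes were not tested.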
